A study of Mus musculus with 35 samples.

Results

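The 51 genes described here encode the proteins that copy nuclear DNA, together with the enzymes that supply its building blocks. They were taken by their annotated symbols and fall into 10 groups by role: origin recognition (6 genes), licensing factors (3), the MCM helicase (6), helicase activation (8), polymerases and primase (9), the sliding clamp and its loader (6), replication protein A (3), Okazaki fragment maturation (2), nucleotide supply (5) and fork protection (3). All 51 had a probe set with a single symbol on the array and all 51 passed the limit on low values, among 18194 genes with such a probe set and 14135 genes tested. The series followed primary mouse embryonic fibroblasts (MEFs), connective tissue cells taken from C57BL6/J embryos and expanded for a few passages at low oxygen, after exposure to the alkylating agent methyl methanesulfonate (MMS). MMS was added at 40 µg/mL in fresh medium, and control cells received fresh medium alone, so the medium change is common to both arms after 0 h. RNA was hybridised to Affymetrix arrays from MMS-treated cells at 1, 8 and 24 h (4 arrays each) and at 72 h (3 arrays), and from control cells at 0, 1, 8, 24 and 72 h (4 arrays each), which gives 35 arrays in 9 groups. The labels call the arrays of a group biological replicates, and do not say whether they came from separate embryos. The p-values therefore measure the spread between arrays within groups, pooled over the 9 groups. Values are log2 signals, on which a difference of 1 is a 2-fold change, and a gene was called higher or lower when its limma p-value, adjusted by Benjamini-Hochberg over all 14135 genes of a comparison, was under 0.05.

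Replication starts at origins bound by the origin recognition complex, which with Cdc6 and Cdt1 loads the ring of MCM proteins onto DNA before S phase. The kinase of Cdc7 and Dbf4, with Cdc45 and the GINS proteins, then turns the ring into the moving helicase, primase and DNA polymerase alpha lay down primers, and polymerases delta and epsilon extend them on the PCNA clamp that the RFC complex loads. Many of these genes are transcribed by E2F factors at the passage into S phase, and alkylated bases left by MMS are obstacles to the fork.

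Promoters were examined for a run of 8 letters typical of E2F sites, because E2F factors are the best known common regulators of these genes. The motifs were TTTCGCGC, TTTGGCGC, TTTCCCGC and TTTGCCGC, sought on both strands in windows of 250 bases before to 50 bases after the transcription start, taken from RefSeq on the GRCm38.p6 build. A promoter was found for 42 of the 51 genes, and 16 of the 42 (38.1%) held at least 1 of these motifs, against 704 of all 27025 genes in the table (2.6%). By windows, of which a gene can have several, 31.4% of those of the replication genes held one, against 2.26% of all windows. The MCM genes had it in 4 of 5 and the polymerase and primase genes in 4 of 7, while none of the 5 nucleotide supply genes and none of the 3 replication protein A genes had it. Of 17 genes of mitosis with a promoter, a list used here for comparison, 1 held a motif. The pentamer CCAAT, bound by the factor NF-Y and sought on both strands as well, was present in 57.1% of the replication genes, 76.5% of the mitosis genes and 41.1% of all genes. A match is a run of letters and was not tested as a binding site, and the lack of a match says only that these letters are not in the window. The 6 promoters shown hold the most matches, with ties ordered by the size of the change at 24 h, and are printed 5′ to 3′ in the direction of transcription with the matches in capitals. They lie at chr1:128359656-128359955 (minus strand) for Mcm6, chr5:151651159-151651458 (minus strand) for Rfc3, chr8:75109259-75109558 (plus strand) for Mcm5, chr5:138171834-138172133 (minus strand) for Mcm7, chr1:20820263-20820562 (minus strand) for Mcm3 and chr8:122567765-122568064 (plus strand) for Cdt1. In Mcm6 the 2 matches farther upstream overlap by 4 bases, and those of Mcm5 overlap by 4 bases too.
Mcm6: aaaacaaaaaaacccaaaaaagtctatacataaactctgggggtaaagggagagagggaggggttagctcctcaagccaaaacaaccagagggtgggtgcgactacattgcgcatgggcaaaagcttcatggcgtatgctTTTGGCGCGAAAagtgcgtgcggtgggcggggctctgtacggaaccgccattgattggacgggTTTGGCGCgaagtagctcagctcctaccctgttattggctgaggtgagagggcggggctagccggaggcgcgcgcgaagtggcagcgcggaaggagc
Rfc3: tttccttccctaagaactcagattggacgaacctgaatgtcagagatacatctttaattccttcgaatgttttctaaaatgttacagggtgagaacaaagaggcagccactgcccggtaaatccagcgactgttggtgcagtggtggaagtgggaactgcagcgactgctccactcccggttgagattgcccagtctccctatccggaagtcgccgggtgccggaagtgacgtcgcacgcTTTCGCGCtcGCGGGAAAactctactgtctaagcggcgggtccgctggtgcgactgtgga
Mcm5: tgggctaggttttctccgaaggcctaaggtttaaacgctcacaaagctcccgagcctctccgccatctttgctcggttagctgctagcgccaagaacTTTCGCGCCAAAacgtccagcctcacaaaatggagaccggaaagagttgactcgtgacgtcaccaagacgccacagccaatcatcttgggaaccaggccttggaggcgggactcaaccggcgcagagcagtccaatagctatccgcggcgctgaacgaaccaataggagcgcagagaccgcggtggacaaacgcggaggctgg
Mcm7: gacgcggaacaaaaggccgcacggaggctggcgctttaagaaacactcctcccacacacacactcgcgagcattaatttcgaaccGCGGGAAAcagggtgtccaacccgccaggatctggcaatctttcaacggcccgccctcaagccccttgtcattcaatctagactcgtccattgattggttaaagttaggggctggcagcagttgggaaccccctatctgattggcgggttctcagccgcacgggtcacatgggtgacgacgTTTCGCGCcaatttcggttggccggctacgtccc
Mcm3: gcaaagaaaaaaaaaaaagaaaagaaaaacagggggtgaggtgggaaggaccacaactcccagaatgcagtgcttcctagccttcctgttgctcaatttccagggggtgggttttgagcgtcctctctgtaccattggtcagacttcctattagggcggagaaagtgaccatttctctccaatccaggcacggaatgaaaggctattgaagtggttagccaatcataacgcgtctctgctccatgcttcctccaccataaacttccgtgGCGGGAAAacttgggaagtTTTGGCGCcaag
Cdt1: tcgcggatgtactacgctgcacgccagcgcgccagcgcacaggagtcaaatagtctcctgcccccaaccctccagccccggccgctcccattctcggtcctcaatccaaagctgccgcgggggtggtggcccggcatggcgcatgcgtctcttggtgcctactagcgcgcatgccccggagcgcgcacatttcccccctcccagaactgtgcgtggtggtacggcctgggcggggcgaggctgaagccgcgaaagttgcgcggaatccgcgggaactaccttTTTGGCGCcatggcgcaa

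**Figure D1:**
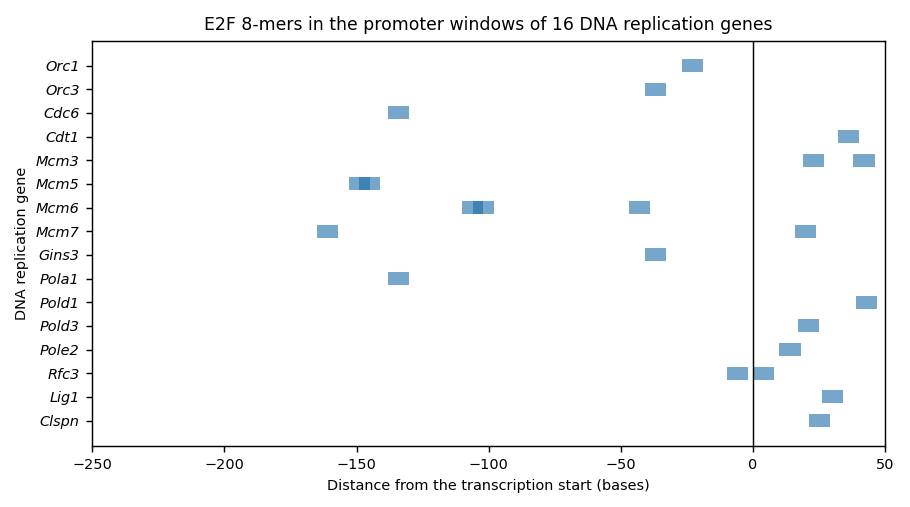
Positions of the E2F 8-mers (bars, 8 bases long, darker where 2 overlap) in the promoter windows of the 16 replication genes that hold one; the x axis is the distance from the transcription start in bases, upstream at negative values. Matches start between -165 in Mcm7 and 39 in Pold1, and 4 genes (Mcm3, Mcm5, Mcm6, Mcm7) of the MCM helicase and Rfc3 hold more than 1.

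The 16 genes with a motif and the 26 without one can be set side by side as groups of unequal make-up. Their median log2 differences between MMS-treated and control cells were -0.01 with a motif and -0.09 without at 8 h, 0.52 and 0.38 at 24 h, and -0.71 and -0.56 at 72 h. These medians are a description, with no test, and at each time they had the same sign.

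Some arrays stood apart and touch the results below. Of 23 detected markers of intestinal epithelium, 22 in control 0 h replicate 3, 15 in MMS 1 h replicate 3 and 19 in MMS 24 h replicate 3 exceeded the average of the remaining arrays in the group by over 1 log2 unit, so counts are also given without these 3 arrays, all of them replicate 3. MMS 72 h replicate 3 had 11, control 1 h replicate 3 had 7, control 24 h replicate 4 had 6 and control 1 h replicate 4 had 1, and every other array had 0. The mean signal of 14 macrophage markers was 6.88 to 7.11 in MMS arrays and 7.56 to 7.76 in control arrays at 8 h, against 4.28 to 5.48 at all other times in either arm. The collagen gene Col1a1, a defining fibroblast marker, averaged 10.4 in MMS-treated and 11.1 in control cells at 8 h, 11.9 under MMS at 24 h, and 13.7 to 14.0 in each remaining group, while vimentin (Vim) was at 13.6 or above in every group. All 8 h arrays share the macrophage signal and the low Col1a1, so no 8 h comparison can be given without them. Fibroblast markers did not all fall with Col1a1 in control cells at 8 h, as their counts given below show. In cultures measured as a whole, fewer cells in S phase and less RNA of a gene per cell cannot be told apart. No pair of arrays held identical values.

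No replication gene passed the test 1 h after MMS. None of the 51 was called by limma, higher (0.361% of all genes) or lower (0.0283% of all genes). Without adjustment, 3 of the 51 had a p under 0.05, and none was called under any alternative processing. The median log2 difference was -0.05 (all genes, 0.00), with values between -0.20 for Rfc4 and 0.21 for Orc1. Mcm10, for example, read 6.62, 6.62, 6.64 and 6.62 in the MMS arrays of 1 h, against 6.66, 6.54, 6.75 and 6.72 in the control arrays. For Mcm10 treated and control arrays overlapped, whereas for Orc1 all treated arrays lay above and for Pold3 and Tipin all below the controls. How many of all genes separated in this way, or had an unadjusted p under 0.05, was not counted at 1 h. Neither is therefore read as an effect on the replication genes.

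At 8 h the replication genes split. Of the 51, 17 were called higher (28.7% of all genes) and 19 lower (25.0% of all genes), and the median was -0.11 (all genes, 0.06). All treated arrays lay above all control arrays for 16 of the 51 (25.0% of all genes) and below them for 20 (22.6% of all genes). Against the effect at 1 h, that at 8 h was higher for 16 genes (21.3% of all genes) and lower for 13 (20.0% of all genes). The share of replication genes called higher, 17 of 51, was not far above that of all genes (28.7%), and the share called lower, 19 of 51, was further above (25.0%). These shares were not tested, and the split by role that follows is a description with no test. Among genes that act before the fork moves, 5 of 6 origin recognition genes, 3 of 6 MCM genes, 3 of 8 helicase activation genes and Cdt1 were called higher. Orc3 and Cdc7 among them were called lower. Among genes that synthesise DNA or feed it, 5 of 9 polymerase and primase genes, 4 of 6 clamp and loader genes and 4 of 5 nucleotide supply genes were called lower. Pola2, Pcna and Rfc3 among them were called higher. In the remaining roles Rpa2 and Fen1 were called higher, and Rpa3, Lig1, Clspn and Tipin lower. The macrophage markers given above also moved at 8 h (1 of 12 tested higher, 8 lower), as did the fibroblast markers (8 of 11 lower), and their part in the result was not tested.

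**Figure D2:**
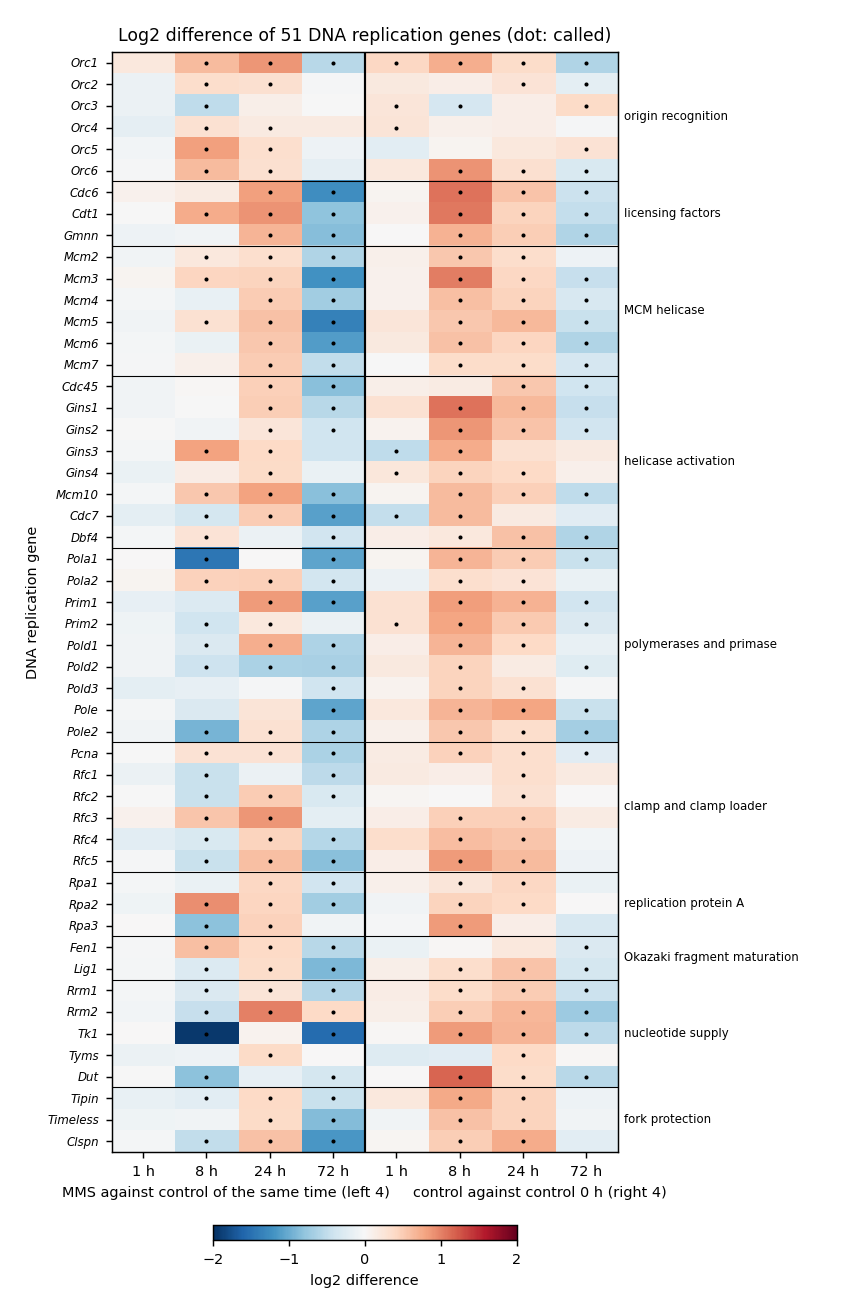
Log2 differences of the 51 replication genes (rows, grouped by role) between MMS-treated and control cells at 1, 8, 24 and 72 h (left 4 columns) and between control cells at each time and control cells at 0 h (right 4 columns); red is higher, blue lower, and a dot marks a called gene. The left block has no dot at 1 h, 17 higher and 19 lower genes at 8 h, 42 and 1 at 24 h, and 1 and 39 at 72 h.

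Among the origin genes, Orc5, an ATPase subunit of the recognition complex, read 8.59, 8.45, 8.53 and 8.52 in the MMS arrays of 8 h, against 7.42, 7.91, 7.62 and 7.88 in the control arrays. Every treated array was above every control array, a difference of 0.82 ± 0.09 (SE, adjusted p = 1.37e-08) or 1.76-fold. Orc3, another subunit of the same complex, read 7.69, 7.61, 7.72 and 7.59 in the MMS arrays of 8 h, against 8.21, 8.35, 8.10 and 7.96 in the control arrays, with all treated arrays below, a difference of -0.50 ± 0.08 (SE, adjusted p = 1.36e-06). Cdt1, which brings the MCM ring to the origin and is destroyed once S phase begins, read 11.23, 11.02, 11.10 and 11.08 in the MMS arrays of 8 h, against 10.39, 10.33, 10.34 and 10.40 in the control arrays. The treated arrays again lay above all controls, by 0.74 ± 0.10 (SE, adjusted p = 1.64e-07), 1.67-fold. Its partner Cdc6 differed by 0.16 and its inhibitor geminin (Gmnn) by -0.06, neither called.

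In the helicase, Mcm3 read 9.77, 9.91, 9.98 and 9.97 in the MMS arrays of 8 h, against 9.44, 9.36, 9.48 and 9.63 in the control arrays. All 4 treated arrays were above, by 0.43 ± 0.10 (SE, adjusted p = 0.000327), the largest called difference of the ring. Mcm2 and Mcm5 were called with adjusted p = 0.0456 and 0.0416, and each lost the call when single arrays were left out, while Mcm4, Mcm6 and Mcm7 were not called. Gins3, a subunit of the GINS complex that holds the helicase to the fork, read 7.05, 7.02, 7.08 and 7.05 in the MMS arrays of 8 h, against 6.54, 6.30, 5.96 and 6.20 in the control arrays. No array overlapped between the arms, and the difference was 0.80 ± 0.14 (SE, adjusted p = 1.01e-05). The other GINS genes lay between -0.08 for Gins2 and 0.15 for Gins4, none called, although the second probe set of Gins2 gave -0.399. Mcm10, a factor needed to start unwinding, was higher by 0.53 ± 0.13 (SE, adjusted p = 0.000934), and the kinase pair divided, Dbf4 at 0.27 (higher) and its catalytic partner Cdc7 at -0.35 (lower).

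Among the polymerases the catalytic subunit of DNA polymerase alpha, Pola1, moved most. It read 5.27, 5.81, 5.87 and 5.90 in the MMS arrays of 8 h, against 6.92, 7.22, 7.32 and 7.18 in the control arrays. All treated arrays were below, MMS replicate 1 the lowest of them, and the difference was -1.45 ± 0.12 (SE, adjusted p = 1.53e-11), 2.73-fold lower. Pola2, the accessory subunit of the same enzyme, read 8.31, 8.24, 8.24 and 8.11 in the MMS arrays of 8 h, against 7.84, 7.62, 7.83 and 7.77 in the control arrays, a difference of 0.46 ± 0.09 (SE, adjusted p = 3.1e-05) in the other direction. Pole2 of polymerase epsilon fell by 0.93 on the log2 scale (all arrays below), and Pole itself was not called (-0.28, adjusted p = 0.0593). Prim2, Pold1 and Pold2 fell by 0.40, 0.29 and 0.41.

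The clamp loader RFC has 5 subunits, and they did not move together. Rfc3 read 8.25, 8.16, 8.37 and 8.19 in the MMS arrays of 8 h, against 7.78, 7.57, 7.68 and 7.70 in the control arrays. All treated arrays lay above, by 0.56 ± 0.09 (SE, adjusted p = 5.77e-06). Rfc1, Rfc2, Rfc4 and Rfc5 were called lower, with differences of -0.45, -0.45, -0.31 and -0.44, although Rfc4 lost its call under some alternatives. The clamp gene Pcna was higher by 0.29 ± 0.05 (SE, adjusted p = 3.95e-05).

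Replication protein A, the trimer that coats single-stranded DNA, divided in the same way. Rpa2, the middle subunit, which checkpoint kinases phosphorylate after damage, read 8.95, 8.91, 9.03 and 9.02 in the MMS arrays of 8 h, against 8.05, 7.96, 8.09 and 8.13 in the control arrays. The treated arrays were all higher, by 0.92 ± 0.06 (SE, adjusted p = 4.27e-14) or 1.9-fold, and the second probe set of the gene gave 0.69. Rpa3, the smallest subunit, read 8.24, 8.21, 8.36 and 8.52 in the MMS arrays of 8 h, against 9.41, 8.95, 9.22 and 9.06 in the control arrays. Its treated arrays were all lower, a difference of -0.83 ± 0.14 (SE, adjusted p = 1.32e-05), and the large subunit Rpa1 was not called (-0.13). Of the enzymes that finish Okazaki fragments, the flap nuclease Fen1 read 10.77, 10.58, 10.57 and 10.55 in the MMS arrays of 8 h, against 10.00, 10.05, 9.97 and 10.07 in the control arrays. All treated arrays were above, by 0.59 ± 0.08 (SE, adjusted p = 3.49e-07), whereas DNA ligase 1 (Lig1) differed by -0.28 ± 0.08 (SE, adjusted p = 0.00274).

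Nucleotide supply held the largest fall of the 51 genes. Tk1, the thymidine kinase that recycles thymidine in S phase, read 7.27, 6.93, 7.50 and 7.27 in the MMS arrays of 8 h, against 9.20, 9.13, 9.16 and 9.21 in the control arrays. Every treated array was more than 1 log2 unit below every control array, and the difference was -1.93 ± 0.12 (SE, adjusted p = 1.05e-14), 3.81-fold lower. Tk1 and Pola1 were the 2 of the 51 genes lower by at least 2-fold, against 5.27% of all genes, and none was higher by 2-fold (3.08% of all genes). Dut, which removes dUTP, fell by 0.82, and the ribonucleotide reductase subunits Rrm1 and Rrm2 fell by 0.29 and 0.46 on the log2 scale. Tyms, the thymidylate synthase gene, was dim in every array of the series (3.79 to 5.33, where the limit on low values was 4.40). It was not called at 8 h. Claspin (Clspn), which links the fork to the checkpoint kinase Chek1, read 7.03, 7.34, 6.92 and 7.13 in the MMS arrays of 8 h, against 7.54, 7.69, 7.45 and 7.72 in the control arrays. All treated arrays were below, a difference of -0.50 ± 0.09 (SE, adjusted p = 3.61e-05).

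At 24 h the direction was shared. Of the 51 genes, 42 were called higher (25.0% of all genes) and 1 lower (19.4% of all genes), with a median of 0.40 (all genes, 0.01). In 39 of the 51 every treated array lay above every control array, against 23.8% of all genes. Tyms, dim in every array of the series, is among the 42 (0.38), with treated and control arrays overlapping. Every gene of the licensing, MCM, replication protein A, Okazaki and fork protection groups was called higher, 17 of 17, and the MCM genes were alike in size, between 0.34 and 0.59. Most changes were modest: 1 gene, Rrm2, reached 2-fold, against 2.25% of all genes that were called and at least 2-fold higher. Without the arrays with intestinal transcripts 40 were higher and 1 lower, with a median of 0.44, and with arrays centred on their median 36 were higher and 1 lower (all genes 2736 higher and 3376 lower, against 3540 and 2745 without centring). At 24 h 10 of 11 fibroblast markers were lower and 1 higher in MMS-treated cells, and their part in the result was not tested.

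**Figure D3:**
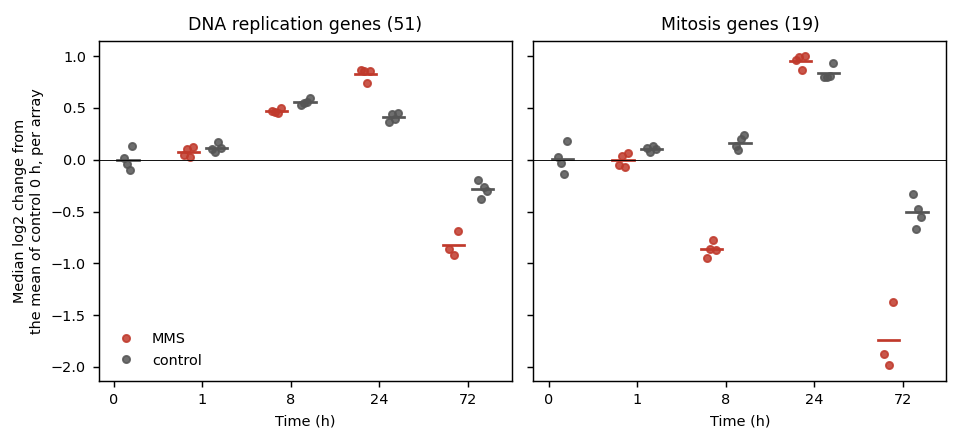
Median change per array from the mean of the control 0 h arrays, over the 51 replication genes (left) and 19 mitosis genes (right), on the log2 scale against time in hours; red points are MMS arrays, grey points control arrays, and bars are group means. The replication genes sit at 0.45 to 0.50 in MMS arrays and 0.52 to 0.60 in control arrays at 8 h, at 0.74 to 0.87 and 0.37 to 0.45 at 24 h, and at -0.92 to -0.69 and -0.38 to -0.20 at 72 h.

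Rrm2, the small subunit that sets the activity of ribonucleotide reductase in S phase, read 12.85, 12.93, 13.02 and 13.07 in the MMS arrays of 24 h, against 11.97, 11.83, 11.99 and 12.08 in the control arrays. All treated arrays were above, by 1.00 ± 0.11 (SE, adjusted p = 6.05e-09), 2-fold, and its other probe sets gave 1.32 and 1.12. Cdt1 read 10.67, 10.57, 10.66 and 10.75 in the MMS arrays of 24 h, against 9.61, 9.72, 9.91 and 9.81 in the control arrays, with no overlap, a difference of 0.90 ± 0.10 (SE, adjusted p = 7.26e-09). Cdc6, the ATPase that works with Cdt1, was 1.77-fold higher, a difference of 0.83 ± 0.11 (SE, adjusted p = 1.88e-07), and Gmnn was higher by 0.69. Orc1, the largest subunit of the recognition complex and an E2F target, read 7.44, 7.23, 7.32 and 7.54 in the MMS arrays of 24 h, against 6.40, 6.66, 6.41 and 6.49 in the control arrays. No array overlapped, and Orc1 was higher by 0.89 ± 0.11 (SE, adjusted p = 1.14e-07), the largest difference of the origin genes, whose other members were called at 0.18 to 0.34 apart from Orc3 (0.12, not called). The other probe sets of Orc3 gave -0.3 and -0.185.

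Mcm5 read 10.38, 10.23, 10.42 and 10.39 in the MMS arrays of 24 h, against 9.77, 9.71, 9.80 and 9.78 in the control arrays. The treated arrays were all above, by 0.59 ± 0.13 (SE, adjusted p = 0.000284). Mcm10 read 7.83, 8.01, 7.81 and 7.90 in the MMS arrays of 24 h, against 6.93, 7.36, 6.99 and 7.03 in the control arrays, again without overlap, and differed by 0.81 ± 0.13 (SE, adjusted p = 6.75e-06). Of the helicase activators, Cdc45, Cdc7 and all 4 GINS genes were called higher too, and Dbf4 was not (-0.11). Prim1, the catalytic subunit of primase, read 9.74, 9.51, 9.69 and 9.67 in the MMS arrays of 24 h, against 8.66, 8.94, 8.87 and 8.71 in the control arrays. All treated arrays were above, by 0.86 ± 0.14 (SE, adjusted p = 4.76e-06), and Pold1, the catalytic subunit of polymerase delta, was higher by 0.72.

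Pold2, the second subunit of polymerase delta, was the 1 gene of the 51 called lower. It read 7.54, 7.48, 7.34 and 7.33 in the MMS arrays of 24 h, against 8.19, 7.97, 7.95 and 8.10 in the control arrays. The treated arrays were all below, a difference of -0.63 ± 0.09 (SE, adjusted p = 1.46e-06), and Pold2 was also called lower at 8 and 72 h (-0.41 and -0.64). Pola1, which had fallen at 8 h, stood at 0.00 and Tk1 at 0.08, neither called, with treated and control arrays overlapping in both. Pold3, another subunit, was not called (-0.03), and its 2 other probe sets gave 0.31 and 0.28.

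In the clamp loader Rfc3 read 8.53, 8.61, 8.47 and 8.68 in the MMS arrays of 24 h, against 7.65, 7.91, 7.52 and 7.67 in the control arrays. Every treated array was above, by 0.88 ± 0.09 (SE, adjusted p = 2.38e-09), and at 24 h Rfc2, Rfc4 and Rfc5 were called higher with it (0.51, 0.45 and 0.60), whereas the large subunit Rfc1 was not (-0.12). The other probe sets of Rfc1 gave -0.08 and 0.55. The 3 replication protein A genes were alike, 0.41, 0.44 and 0.46. Rpa3 read 8.95, 9.08, 8.50 and 9.06 in the MMS arrays of 24 h, against 8.21, 8.59, 8.38 and 8.59 in the control arrays, where MMS replicate 3, an array with intestinal transcripts, lay among the controls. The flap nuclease, Fen1, read 10.54, 10.71, 10.48 and 10.70 in the MMS arrays of 24 h, against 10.25, 10.12, 10.23 and 10.24 in the control arrays, a difference of 0.40 ± 0.08 (SE, adjusted p = 0.000175) without overlap. Clspn read 8.44, 8.34, 8.47 and 8.53 in the MMS arrays of 24 h, against 7.86, 7.77, 7.85 and 7.93 in the control arrays, all treated arrays above, and differed by 0.59 ± 0.09 (SE, adjusted p = 4.12e-06).

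Of the 51 genes 38 had several probe sets, and 45 of the probe sets not used reached the limit on low values in at least 1 group. Among called genes, 4 of these had the opposite sign to the one used at 8 h, 5 at 24 h and 1 at 72 h. At 8 h they were dimmer probe sets of Cdc7 (0.19), Orc3 (0.12), Prim2 (0.02) and Rfc2 (0.01), although another probe set of Orc3 gave -0.43, of Prim2 -0.41 and of Rfc2 -0.21. At 24 h both other probe sets of Orc4 that reached the limit (-0.06 and -0.01) and 1 each of Cdc45 (-0.06), Prim2 (-0.02) and Mcm5 (-0.17) had the opposite sign, where the remaining one of Mcm5 gave 0.60. At 72 h that of Cdc45 was at 0.01.

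The MMS effect itself differed between 8 and 24 h. For 32 of the 51 genes it was higher at 24 h than at 8 h (23.3% of all genes) and for 4 lower (22.2% of all genes), with a median difference of 0.48 (all genes, -0.03). With arrays centred the counts were 24 and 6, where all genes gave 2460 higher and 4153 lower against 3299 and 3143 without centring, and the median of all genes moved to -0.16. All 8 h arrays carried the macrophage transcripts given above, and their part in the difference between 8 and 24 h was not tested. The largest differences were those of Tk1, 2.01 ± 0.16 (SE, adjusted p = 2.82e-11), Rrm2, 1.46 ± 0.15 (SE, adjusted p = 5.38e-09), and Pola1, 1.45 ± 0.17 (SE, adjusted p = 4.1e-08), which had been lower in treated cells at 8 h. The 4 genes with a lower effect at 24 h were Rpa2 (-0.49), Orc5 (-0.48), Dbf4 (-0.38) and Orc6 (-0.31). Rrm2, Rpa3, Clspn, Lig1 and 3 loader subunits were among the genes called lower at 8 h and higher at 24 h. Such pairs of calls were not counted over all genes. Across the 51 genes the effects at 8 and 24 h had a Pearson's r of 0.35 and a Spearman's rho of 0.26, given as a description because genes of one complex on the same arrays are not independent.

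**Figure D4:**
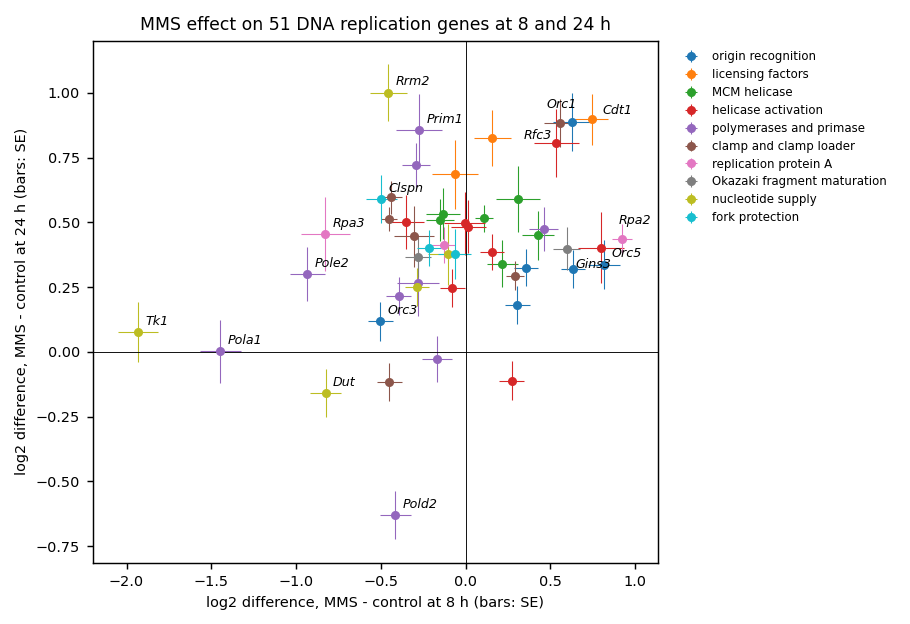
MMS effect (log2 difference, MMS minus control) at 24 h (y axis) against that at 8 h (x axis) for the 51 replication genes, coloured by role, with bars of 1 SE. Nearly all points lie above 0 on the y axis and spread over both signs on the x axis, with Tk1 (-1.93 and 0.08) and Pola1 (-1.45 and 0.00) at the far left and Pold2 (-0.41 and -0.63) alone at the bottom.

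By 72 h the replication genes were lower in MMS-treated cells. Of the 51, 39 were called lower (10.4% of all genes) and 1 higher (10.1% of all genes), with a median of -0.57 (all genes, -0.01). All treated arrays lay below all control arrays for 40 of the 51, against 15.3% of all genes, and 10 were at least 2-fold lower (1.37% of all genes). Without MMS 72 h replicate 3, the array with 11 intestinal markers, 39 were lower and none higher, and the median was -0.66. The MMS effect was lower at 72 h than at 24 h for 44 of the 51 (16.5% of all genes). It was higher for 0 (12.4% of all genes), and the median difference was -0.95. With arrays centred 39 genes had a lower and 0 a higher effect, where all genes gave 2265 higher and 1525 lower, against 1759 and 2339.

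Tk1 read 6.04, 6.03 and 6.75 in the MMS arrays of 72 h, against 7.62, 7.85, 7.87 and 7.89 in the control arrays. All treated arrays were below, a difference of -1.53 ± 0.13 (SE, adjusted p = 9.32e-11) or 2.9-fold, with replicate 3 the nearest to the controls. Mcm5 read 7.08, 6.91 and 7.96 in the MMS arrays of 72 h, against 8.89, 8.53, 8.65 and 8.60 in the control arrays, and again replicate 3 was the highest treated array while none reached a control, a difference of -1.35 ± 0.14 (SE, adjusted p = 7.33e-09). Cdc6 read 5.20, 4.83 and 5.65 in the MMS arrays of 72 h, against 6.56, 6.49, 6.38 and 6.48 in the control arrays, lower in every treated array, a difference of -1.25 ± 0.12 (SE, adjusted p = 1.42e-09). Each SE pools the spread of all 9 groups, and for these genes the MMS arrays of 72 h scattered more than the controls. The SD was 0.41 for Tk1, 0.56 for Mcm5 and 0.41 for Cdc6 in the MMS arrays. In the control arrays of 72 h it was 0.13, 0.16 and 0.07. With only the compared groups in the model, 38 of 40 calls at 72 h were kept. All 6 MCM genes fell, between 0.48 for Mcm7 and 1.35 for Mcm5 on the log2 scale, and so did all 3 licensing factors and 8 of 9 polymerase and primase genes. Origin recognition stood apart: of 6 genes Orc1 alone was called lower (-0.55), and the probe sets used for Orc2 to Orc6 lay between -0.18 and 0.18. Other probe sets of Orc2, Orc3 and Orc4 that reached the limit on low values spread wider, from -0.402 (Orc3) to 0.345 (Orc4).

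Rrm2 was the 1 gene of the 51 called higher at 72 h. It read 10.60, 10.82 and 11.49 in the MMS arrays of 72 h, against 10.75, 10.45, 10.55 and 10.56 in the control arrays. The treated arrays overlapped the controls, and the difference of 0.39 ± 0.12 (SE, adjusted p = 0.0151) rested on replicate 3: without that array it was 0.13 and not called. The partner subunit Rrm1 was lower, with a difference of -0.59 ± 0.08 (SE, adjusted p = 8.16e-07). In fork protection, Clspn, Timeless and Tipin were all called lower, at -1.16, -0.87 and -0.45.

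**Figure D5:**
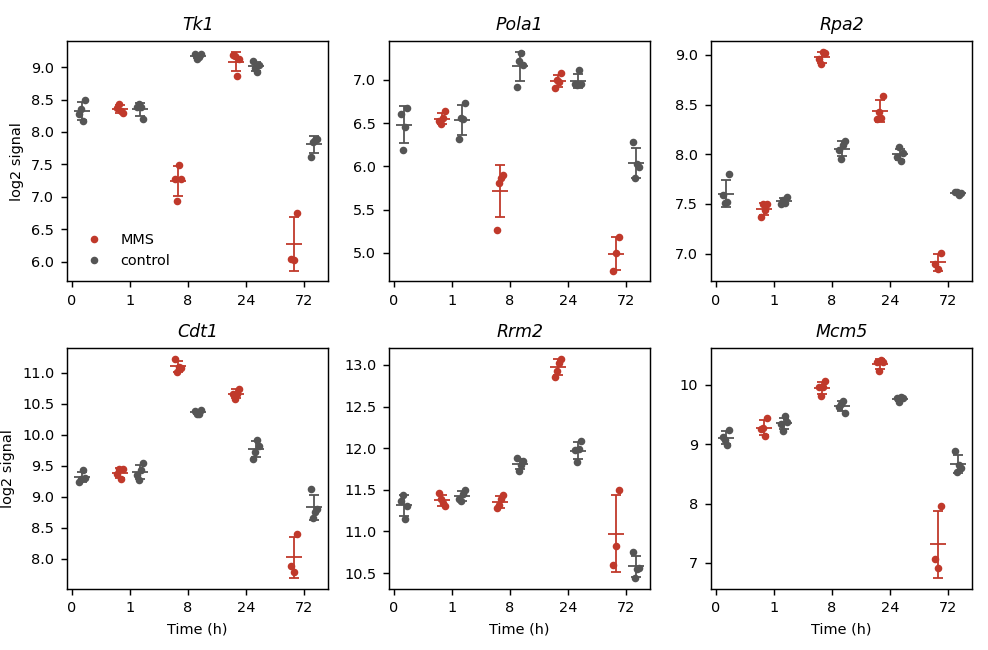
Log2 signal of 6 replication genes against time in hours; each point is 1 array, red for MMS-treated and grey for control cells, with the group mean and SD as bars. Tk1 and Pola1 are low in MMS arrays at 8 h and level with controls at 24 h, Rpa2 and Cdt1 are high at 8 and 24 h, Rrm2 is high at 24 h, and all but Rrm2 are below every control at 72 h.

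The replication genes also changed with time in control cells. At 8 h after the medium change 42 of the 51 genes were higher than at 0 h (35.8% of all genes) and 1 lower (23.6%), median 0.54 (all genes, 0.09), and at 24 h 43 were higher (9.12%) and 0 lower (2.06%), median 0.42 (all genes, 0.01). At 72 h 2 were higher (21.8%) and 29 lower (16.3%), median -0.29 (all genes, 0.00). Markers of cell types moved with the rise at 8 h: all 12 macrophage markers tested were higher in control cells at 8 h than at 0 h, 4 of 11 fibroblast markers higher and 5 lower, and 7 of 19 mitosis genes higher and 4 lower. The macrophage lysozyme gene Lyz2 averaged 12.1 at 8 h against 6.81 at 0 h, Col1a1 11.1 against 13.9, and Mki67, a marker of cycling cells, 8.28 against 9.29, and the part of these markers in the result was not tested. Without the 3 arrays with intestinal transcripts, among them control 0 h replicate 3, 41 and 40 were higher at 8 and 24 h, and the counts of 72 h were 2 higher and 31 lower. At 1 h 5 were higher (7.22%) and 2 lower (4.38%), and without those arrays 1 was higher and 3 lower.

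The largest rises in control cells at 8 h were those of Dut, Gins1 and Cdc6. Dut read 10.15, 10.14, 10.13 and 10.19 at 8 h, against 8.98, 8.88, 8.82 and 9.28 at 0 h, with no overlap, and was 2.25-fold higher, a difference of 1.17 ± 0.09 (SE, adjusted p = 4.95e-12). Gins1 and Cdc6 were higher by 1.09 and 1.09, and Orc3 was the 1 gene lower (-0.33). At 24 h the largest were Pole (0.80), the catalytic subunit of polymerase epsilon, Clspn (0.75) and Prim1 (0.70). Pole read 8.14, 7.91, 8.06 and 8.17 at 24 h, against 7.42, 7.14, 7.14 and 7.39 at 0 h, all higher. At 72 h Orc3 (0.38) and Orc5 (0.29) were higher, and the largest falls were those of Rrm2 (-0.73), Pole2 (-0.67) and Orc1 (-0.61). At 1 h Orc1 (0.41), Prim2 (0.31) and Orc4 (0.25) had the largest rises among called genes, and Gins3 (-0.50) and Cdc7 (-0.48) fell.

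Set against control cells at 0 h, MMS-treated cells had 36 of the 51 genes higher (44.4% of all genes) and 7 lower (28.7%) at 8 h, 49 higher (29.7%) and 1 lower (19.8%) at 24 h. By 72 h, 1 was higher (20.6%) and 44 lower (14.5%). These counts share the 0 h arrays with those of control cells. The farthest below the 0 h level at 8 h were Tk1 (-1.08 ± 0.12), Orc3 (-0.83 ± 0.08) and Pola1 (-0.77 ± 0.12), where control cells at 8 h stood at 0.85, -0.33 and 0.68 against 0 h. At 24 h Rrm2 (1.66 ± 0.11), Prim1 (1.56 ± 0.14) and Cdc6 (1.40 ± 0.11) were the farthest above it, and at 72 h Tk1 (-2.05 ± 0.13) and Mcm5 (-1.80 ± 0.14) the farthest below (SE in each case).

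Other genes of the pathway are given by their counts, to be read beside the shares of all genes called higher and lower, 28.7% and 25.0% at 8 h, 25.0% and 19.4% at 24 h, and 10.1% and 10.4% at 72 h. Of 29 further fork and chromatin assembly genes, MMS-treated cells had 9 higher and 9 lower at 8 h. The counts of higher and lower genes were 15 and 2 at 24 h, then 0 and 18 at 72 h. The topoisomerase Top2a was lower at 8 h (-1.22) and 72 h (-1.41), and Dscc1, a subunit of an alternative clamp loader, was lower at 8 h (-0.78), higher at 24 h (1.01) and lower at 72 h (-1.10). Of 17 E2F, RB and G1/S kinase genes, 2 were higher and 8 lower at 8 h, with counts of 7 and 2 at 24 h and of 2 and 7 at 72 h. Cyclin E2 (Ccne2), which drives entry into S phase, was 3.38-fold higher at 8 h and 1.81-fold higher at 24 h, with no array overlapping. By 72 h Ccne2 was 1.97-fold lower, and cyclin E1 (Ccne1) was lower at 24 h (-0.46). Cyclin A2 (Ccna2) was 2.43-fold lower at 8 h and 3.37-fold lower at 72 h. The retinoblastoma gene Rb1, a repressor of E2F factors, was lower at 8 h (-0.69) and higher at 24 h (1.11) and 72 h (1.13).

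Of 10 replication checkpoint genes, 6 were higher and 2 lower at 8 h, with Rad9a of the damage-sensing clamp at 0.68 and the kinase Atr at -0.93, with counts of 3 and 0 at 24 h and of 0 and 1 at 72 h. Of 16 other nucleotide synthesis genes, 3 were higher and 4 lower at 8 h, with counts of 8 and 3 at 24 h and of 4 and 3 at 72 h. Samhd1, which breaks down deoxynucleotides, was lower at 8 h (-0.69) and 24 h (-0.55), and Dck and Dtymk, kinases of nucleotide salvage and of thymidylate, were higher at 24 h (0.86 and 0.71). Of 19 mitosis genes, 18 were lower and 1 higher at 8 h, with a median of -0.93, where that of the replication genes was -0.11. At 24 h 6 of the 19 were higher and 0 lower, and at 72 h all 19 were lower, with medians of 0.21 and -1.15. These lists were not tested against each other.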

How the data were processed

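RNA of 35 cultures was hybridised to Affymetrix mouse arrays by the authors. The deposited values are log2 signals of 45101 probe sets, which the authors made by RMA (background correction, quantile normalization and summary of probes; version not stated), with no pooling of replicates. Array medians lay between 4.98 and 5.09, and precision is set by how many arrays a group has. Of the probe sets, 34958 carried 1 gene symbol, 932 several and 9211 none listed, and 99.4% of those with 1 symbol were found in the reference gene table.

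For each of 18194 genes the probe set of highest average signal was taken, and 14135 genes whose mean reached the 40th percentile (log2 4.40) in at least 1 group were tested. A model with 1 mean per group (26 residual degrees of freedom) was fitted to all arrays with lmFit and eBayes of limma 3.58.1 in R 4.3.3, two-sided, with Benjamini-Hochberg adjustment within each comparison and a threshold of 0.05. The scripts were tested on simulated data. The methods name a permutation program that was not used here. MMS 72 h has 3 arrays, and no further array of it was analysed here. Signals were not compared between genes.

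The members and lists were chosen with earlier results of these data known. Array values are given for the called gene of each role with the largest difference at 8 and 24 h, the 4 largest calls against the majority, and the 3 largest rises and falls at 72 h. Mcm10 at 1 h, Orc3, Pola2 and Rpa3 at 8 h, and Dut and Pole in control cells were added after their values were seen. Alternatives were other filters, array weights, centring, repeated quantile normalization, the mean of a gene's probe sets, a model of the compared groups alone, the replicate number as a block, and fits without single arrays, without the 8 h arrays or without the 3 arrays with intestinal transcripts. Promoter sequences came from a RefSeq table on GRCm38.p6; Tipin, Gins2, Gins1, Gmnn, Prim2, Gins4, Pole, Rfc2 and Mcm4 were not matched.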

Additional observations from a re-analysis of the deposited data

Results flagged for a closer look

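A single array lay far from the other arrays of its group in 4 of 50 groups of 4 arrays examined, where chance gives about 1 in 20. Pola1 was at 5.27 in MMS 8 h replicate 1, against 5.81 to 5.90 in the other MMS arrays. Fen1 was at 10.8 in the same array, against 10.5 to 10.6 in the others of the group, and at 10.1 in control 24 h replicate 2, against 10.2 in the other control arrays. The median change of the 51 genes was 0.74 in MMS 24 h replicate 3, an array with 19 of 23 intestinal markers, against 0.86 to 0.87 in the others of the group.

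The MMS effect differed between times by limma's test of the difference. Comparisons with 8 h include the macrophage transcripts of the 8 h arrays, whose part was not tested. Between 24 and 8 h, 32 genes had a higher and 4 a lower effect, between 72 and 24 h 0 a higher and 44 a lower one, and between 8 and 1 h 16 a higher and 13 a lower one (21.3% and 20.0% of all genes). At 24 against 8 h the differences were 2.01 for Tk1 (adjusted p = 2.8e-11), 1.46 for Rrm2 (5.4e-09), 1.45 for Pola1 (4.1e-08), 1.28 for Rpa3 (5.8e-06), 1.13 for Prim1 (1.6e-05), 1.09 for Clspn (6.5e-08) and 0.33 for Rfc3 (0.039). They were -0.48 for Orc5 (0.0041) and -0.49 for Rpa2 (1.8e-05).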

How the results depend on the processing

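Of the calls between MMS-treated and control cells, 28 of 36 at 8 h, 36 of 43 at 24 h and 36 of 40 at 72 h were kept under every alternative run. Leaving out single arrays gave 15 to 18 higher and 18 to 19 lower genes at 8 h, 39 to 42 and 1 at 24 h, and 0 to 2 and 37 to 40 at 72 h. The 1 gene higher at 72 h, Rrm2, became 2 genes with array weights and 0 with only the compared groups in the model; without control 72 h replicate 2 its difference was 0.35 and not called. The 1 gene lower at 24 h became 2 with the mean of a gene's probe sets, which also turned Pold3 at 24 h to 0.19 (adjusted p = 0.0322). In control cells the 5 genes higher at 1 h became 10 with the 60th percentile filter, 14 with array weights, 9 with centring, 3 with quantile normalization, 8 with the mean of probe sets, 1 with only the compared groups, 9 with the replicate block and 1 without the arrays with intestinal transcripts (1 to 10 without single arrays), and all genes split into 1350 higher and 460 lower with centring, against 1021 and 619. The 2 genes lower at 1 h became 4 with array weights (1 to 3 without single arrays), the 1 gene lower at 8 h became 2 with weights, with quantile normalization and with only the compared groups and 3 with the mean of probe sets, and the 2 genes higher at 72 h became 4 with weights and 1 with only the compared groups (1 to 5 without single arrays). The cause was not tested. The labels do not say what a replicate number marks. MMS and control arrays of the same number and time had correlations of -0.26 to 0.31 and were the best match in 8 of 15 cases, and the arrays left out for intestinal transcripts are all replicate 3. As not every correlation was above 0.1, the numbers were not treated as pairs, which does not show that the arrays were unpaired. The replicate block moved no other count by over 1.5 times.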
